A study of Mus musculus with 3 samples.

Results

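The genes described here are 31 enzymes and enzyme subunits of central carbon metabolism, chosen by gene symbol from the 32285 genes listed for each library. They comprise 16 genes of glycolysis and lactate formation (Hk1, Hk2, Gpi1, Pfkl, Pfkm, Pfkp, Aldoa, Aldoc, Tpi1, Gapdh, Pgk1, Pgam1, Eno1, Pkm, Ldha and Ldhb), 6 genes of the pentose phosphate pathway (G6pdx, Pgls, Pgd, Rpia, Tkt and Taldo1) and 9 genes of pyruvate oxidation and the citrate cycle (Pdha1, Cs, Idh2, Idh3a, Ogdh, Suclg1, Fh1, Mdh1 and Mdh2). They were measured by droplet single-cell RNA-seq of peripheral blood mononuclear cells of C57BL/6 mice in 3 libraries. The first came from aged mice given AA for 1 month (aged+AA; the series title names AA as ascorbic acid), the second from aged mice given PBS for 1 month (aged), and the third from young mice given PBS for 1 month (young). The labels give no age in months, no number of mice and no pooling scheme, so each group is 1 library. A difference between libraries therefore has no replicate check, and it is given only as a ratio with an interval that covers counting error. Cell classes were compared over the 3 libraries, which differ in age and treatment as well as in animals. Those p-values and standard errors rest on 1 estimate of spread per gene, shared by all classes in the 3 libraries. They do not measure the spread of a single class contrast between the 3 libraries.

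Filtering left 10990 aged+AA, 9726 aged and 8770 young cells, in which the median cell held 4081, 3603 and 4456.5 UMIs in that order. A gate on marker genes, none of them a member, placed 89.4% of aged+AA, 82.1% of aged and 90.1% of young cells into naive T cells, memory T cells, B cells, NK cells or myeloid cells. The UMIs of each class were summed by library into 15 sums, which held between 398559 UMIs (young myeloid cells, 78 cells) and 22521872 UMIs (young naive T cells, 4415 cells). Of the marker lists kept out of the gate, 3 genes each, the naive T, B and NK lists were highest in the class they name in every library. The T cell list (Cd247, Lck and Thy1) stood at 532 to 837 CPM (counts per 1000000 UMIs) in both T cell classes and at 10.8 to 45.2 CPM in B and myeloid cells, but at 372 to 454 CPM in NK cells. The other lists did not set their class apart: the myeloid list (Tyrobp, Fcer1g and Spi1) was at 5893 to 6393 CPM in NK and 6486 to 7888 CPM in myeloid cells, and the memory T list (S100a6, Lgals1 and Crip1) was higher in NK than in memory T cells in every library. Haemoglobin and other erythroid genes entered all 5 classes, most in the aged library, where their 5 markers summed to 4861 to 7563 CPM by class, against 1896 to 3041 CPM in aged+AA and 888 to 1298 CPM in young. The 3 platelet markers (Pf4, Ppbp and Itga2b) summed to 4.23 to 99.5 CPM in aged, 0.810 to 17.7 CPM in aged+AA and 0 to 2.51 CPM in young classes, and Pf4 was at 0 in young classes other than myeloid cells. The 4 myeloid gate genes summed to 228 to 339 CPM in aged, 25.4 to 36.0 CPM in aged+AA and 4.96 to 8.23 CPM in young lymphocyte classes. Between 21 and 29 cell barcodes were shared by any pair of libraries, against 12.6 to 15.7 expected from the number of possible barcodes. The cause of this excess was not tested.

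Glycolysis splits glucose into pyruvate and, through lactate dehydrogenase, lactate. The pentose phosphate pathway branches off at glucose 6-phosphate, and its oxidative steps make the NADPH that phagocytes use for the respiratory burst and that all cells use against oxidants. Pyruvate dehydrogenase passes pyruvate carbon into the mitochondrial citrate cycle. Resting lymphocytes are known for relying largely on mitochondrial oxidation, activated and effector lymphocytes for raising glycolysis, and neutrophils for depending on glycolysis. Several steps have alternative isoenzymes: hexokinase 2 and lactate dehydrogenase A are classical targets of hypoxia-inducible factor and Myc, whereas the lactate dehydrogenase B subunit is typical of oxidative tissues.

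The start-site sequences of 3 members are shown: Ldha and Ldhb, which encode subunits of the same enzyme and whose shares of UMIs differed between classes, and Hk2, which had the largest fold of all members in myeloid cells. Each is the 250 bases before a start site, 5′ to 3′ on the strand of the gene, from RefSeq on GRCm38.p6. Capitals mark ACGTG on either strand, the core letters of the hypoxia response element, which overlap the E-box CACGTG. Ldha lies on the plus strand of chromosome 7 (46841475 to 46855627), and the window at chr7:46845554-46845803 held 5 matches on both strands together, 4 of which are the 2 CACGTG it holds, each read once on either strand. A second Ldha window, at chr7:46846832-46847081, held 0 matches and is not shown.
Ldha: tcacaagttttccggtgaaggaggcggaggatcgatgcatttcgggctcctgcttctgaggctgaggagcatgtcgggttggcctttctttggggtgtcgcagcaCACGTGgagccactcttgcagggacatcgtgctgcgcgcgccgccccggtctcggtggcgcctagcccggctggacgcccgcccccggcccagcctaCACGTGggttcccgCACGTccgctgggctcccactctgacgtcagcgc
Ldhb lies on the minus strand of chromosome 6 (142490249 to 142507957), and the window at chr6:142507958-142508207 held 0 matches.
Ldhb: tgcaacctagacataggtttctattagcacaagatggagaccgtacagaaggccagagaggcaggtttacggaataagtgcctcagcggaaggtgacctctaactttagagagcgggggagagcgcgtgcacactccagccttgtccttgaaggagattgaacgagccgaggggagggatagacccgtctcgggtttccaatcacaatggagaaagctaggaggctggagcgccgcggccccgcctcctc
Hk2 lies on the minus strand of chromosome 6 (82725025 to 82774454), and the window at chr6:82774455-82774704 held 2 matches, 226 and 52 bases before the start.
Hk2: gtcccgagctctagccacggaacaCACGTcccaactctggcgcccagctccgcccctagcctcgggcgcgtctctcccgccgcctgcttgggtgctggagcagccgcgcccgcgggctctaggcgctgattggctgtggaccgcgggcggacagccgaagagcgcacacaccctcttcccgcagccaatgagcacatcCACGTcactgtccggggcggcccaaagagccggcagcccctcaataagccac
RefSeq start sites were matched for 30 of the 31 members, and Idh3a is named only. ACGTG was found in 16 of 47 member windows (34.0%), which belong to 9 genes (Aldoa, Hk2, Ldha, Mdh1, Ogdh, Pfkm, Pgam1, Pgk1 and Pkm), and in 16.6% of the 32851 windows of all genes. By gene, that is 9 of 30 members (30.0%) and 18.5% of all genes, and several windows of 1 gene can overlap. CACGTG was found in 5 of 47 member windows and in 6.02% of all windows, and by gene in 3 of 30 members (10.0%) and in 6.86% of all genes. The member windows were also richer in G and C, with a median of 59.2% against 52.4% over all windows. The windows of G6pdx, Pgd, Taldo1, Tkt and Tpi1, which had the next largest folds in myeloid cells, held 0 ACGTG and are not shown. These letter matches are a description of the windows and say nothing about binding.

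Every member had UMIs in every class, though not in every sum. Levels below are CPM scaled over the 15 sums by TMM, which takes most genes as not differing. The levels are not corrected for length, and the 3′ libraries do not separate splice forms such as those of Pkm, so levels are compared for 1 gene across sums and not between genes. Genes with near-identical copies in the mouse genome, Gapdh among them, are uncertain where the counting could split their reads. Eno1b, a copy of Eno1 counted under its own name, reached at most 5.03 CPM in any sum. A second gene ID shares the symbol Aldoa and held 1 UMI in called barcodes, against 34180 for the ID used here.

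**Figure D1:**
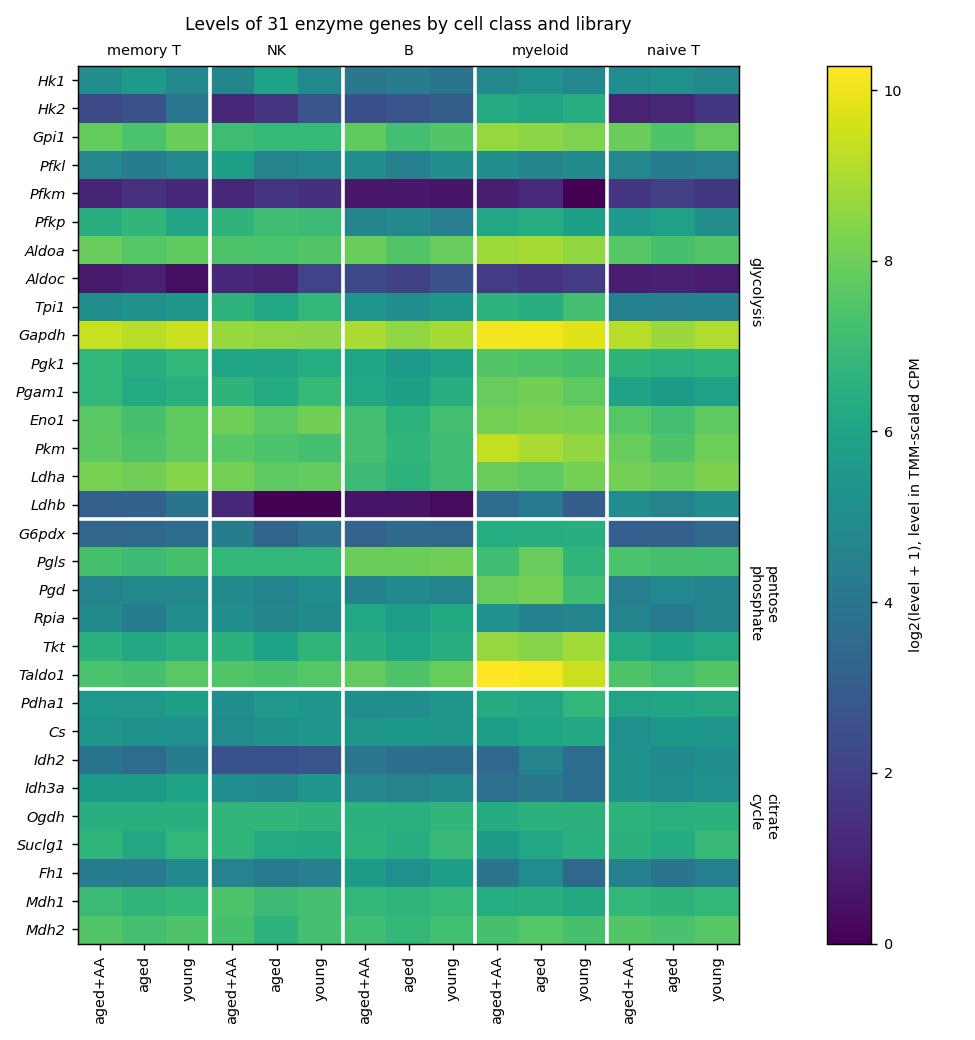
Heat map of the level of each of the 31 members (rows, grouped by pathway) in memory T, NK, B, myeloid and naive T cells of the aged+AA, aged and young libraries (columns), with colour for log2 of the TMM-scaled CPM plus 1. Hk2, G6pdx, Pgd, Tkt and Taldo1 are brighter in the 3 myeloid columns than in naive T cells, and Ldhb is darkest in B and NK cells.

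The first comparison asked how myeloid cells (monocytes and neutrophils) differ from naive T cells, each library being its own block. In myeloid cells 18 of 31 members were higher and 6 lower than in naive T cells by edgeR's quasi-likelihood test (Benjamini-Hochberg adjusted p below 0.05), where 31.1% of the 11565 genes tested were higher and 32.3% lower. The median log2 fold change of the members was 0.63, against -0.06 over all genes tested. By pathway, 12 of 16 glycolysis genes rose and 2 fell, 5 of 6 pentose phosphate genes rose and 0 fell (0 also at an unadjusted p below 0.05 and with DESeq2), and 1 of 9 citrate cycle genes rose and 4 fell.

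Hk2, the inducible hexokinase that traps glucose as glucose 6-phosphate, had 77.9, 67.7 and 84.8 CPM in aged+AA, aged and young myeloid cells, against 1.01, 1.14 and 2.19 CPM in the corresponding naive T cells. The groups did not overlap, and the log2 fold change was 5.79 ± 0.28 (SE from the fit shared by all classes, n = 3 libraries). The naive T levels of Hk2 rest on 10, 4 and 39 UMIs. Hk2 passed the count filter only through classes where it is higher, so no p is given, though its call is counted above. Hk1, the constitutive hexokinase, stood at 27.3, 36.3 and 26.7 CPM in aged+AA, aged and young myeloid cells and at 31.3, 36.0 and 27.4 CPM in naive T cells, and did not pass the test (log2 fold change -0.15). The other early steps rose less than Hk2. Gpi1, which converts glucose 6-phosphate to fructose 6-phosphate, had 405, 363 and 313 CPM in aged+AA, aged and young myeloid cells, against 241, 175 and 223 CPM in naive T cells. The phosphofructokinase genes Pfkp and Pfkl had log2 fold changes of 0.63 and 0.44 and passed the test, but the Pfkl call was lost with no library block and without each of the 3 libraries (0.32 to 0.50). The muscle form Pfkm fell by 1.12 ± 0.43 on the log2 scale, at low levels of 0.803, 1.43 and 0 CPM in aged+AA, aged and young myeloid cells, against 2.11, 2.85 and 2.13 CPM in naive T cells. That call did not hold with DESeq2 (log2 fold change -1.13) or without the filter on low counts (-1.09).

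Among the lower steps, which turn the split sugar into pyruvate with a gain of ATP, Tpi1 and Pgam1 had the largest folds. Tpi1, triosephosphate isomerase, had 98.8, 86.8 and 145 CPM in aged+AA, aged and young myeloid cells, against 22.2, 21.1 and 21.7 CPM in naive T cells (log2 fold change 2.27 ± 0.15, edgeR adjusted p = 5.99e-10). Pgam1, phosphoglycerate mutase, had 239, 270.0 and 213 CPM in aged+AA, aged and young myeloid cells, against 60.3, 47.4 and 60.0 CPM in naive T cells (log2 fold change 2.15 ± 0.16, edgeR adjusted p = 2.52e-09). Neither gene's groups overlapped. Aldoa (aldolase A), Aldoc (aldolase C), Gapdh, Pgk1, Eno1 and Pkm (pyruvate kinase) also rose, with log2 fold changes of 0.70 (Eno1) to 1.55 (Aldoc), though the Aldoc call was lost without the aged (1.64) or the aged+AA library (1.56). Aldoc had 3, 25 and 1 UMIs in aged+AA, aged and young myeloid cells and 8, 3 and 14 in naive T cells. It passed the count filter only through sums where it is higher. At the lactate step, Ldha did not pass the test, with 242, 210.4 and 276 CPM in aged+AA, aged and young myeloid cells and 280.0, 241 and 305 CPM in naive T cells. Ldhb had 11.2, 17.3 and 7.27 CPM in myeloid cells of the same libraries, against 30.3, 23.4 and 33.0 CPM in naive T cells, and fell by 0.87 ± 0.26 on the log2 scale.

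Pentose phosphate genes had the largest folds after Hk2. G6pdx, glucose-6-phosphate dehydrogenase and the entry to the pathway, had 81.9, 83.9 and 87.2 CPM in aged+AA, aged and young myeloid cells, against 7.34, 7.71 and 10.4 CPM in naive T cells. The log2 fold change was 3.28 ± 0.17 (SE, n = 3; edgeR adjusted p = 3.2e-11), and the groups did not overlap. Pgd, the other NADPH-forming dehydrogenase, had 239, 277 and 138 CPM in aged+AA, aged and young myeloid cells, against 20.3, 26.5 and 24.2 CPM in naive T cells (log2 fold change 3.24 ± 0.18, edgeR adjusted p = 5.62e-11). Pgls, the lactonase that acts between them, did not pass the test, with 139.8, 239.8 and 107 CPM in aged+AA, aged and young myeloid cells and 165, 153 and 149 CPM in naive T cells. The sugar-rearranging enzymes rose as well. Taldo1, transaldolase, had 1244, 1129 and 708 CPM in aged+AA, aged and young myeloid cells, against 175, 141 and 185 CPM in naive T cells (log2 fold change 2.62 ± 0.19, edgeR adjusted p = 1.71e-09). Tkt, transketolase, had a log2 fold change of 2.47 ± 0.12 and Rpia, ribose 5-phosphate isomerase, one of 0.36. The Rpia call was lost without the low-count filter, with no library block, with the stricter gate and without each of the 3 libraries (0.22 to 0.44).

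Of the citrate cycle genes, 1 rose, 4 fell and 4 did not pass. Cs, citrate synthase, rose, with 51.4, 67.1 and 72.7 CPM in aged+AA, aged and young myeloid cells, against 34.4, 43.4 and 41.2 CPM in naive T cells. Idh3a, the catalytic subunit of the NAD-dependent isocitrate dehydrogenase, had 13.7, 16.1 and 12.1 CPM in myeloid cells of the same libraries, against 37.2, 30.8 and 35.7 CPM in naive T cells. It fell by 1.11 ± 0.16 on the log2 scale (edgeR adjusted p = 1.15e-05), without overlap. Idh2, the mitochondrial NADP-dependent form, fell by 0.77 ± 0.24, Suclg1, a succinyl-CoA ligase subunit, by 0.51 ± 0.18, and Mdh1, the cytosolic malate dehydrogenase, by 0.38 ± 0.12. Pdha1, Ogdh, Fh1 and Mdh2 did not pass. The lower calls changed with the libraries and the myeloid cells counted, and the cause was not tested. Lower calls numbered 1 without the aged+AA library, 5 without the aged library and 3 without the young library. Those fits have fewer libraries, and 26.4%, 21.8% and 27.1% of all genes tested were lower in them, against 32.3% with all libraries. With monocyte-gated cells alone the counts were 20 higher and 2 lower, where 29.6% of all genes tested were higher and 31.5% lower. There Suclg1, Ldhb, Idh2, Mdh1 and Pfkm had log2 fold changes of -0.29, -0.55, -0.42, -0.19 and -0.99 with no call.

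**Figure D2:**
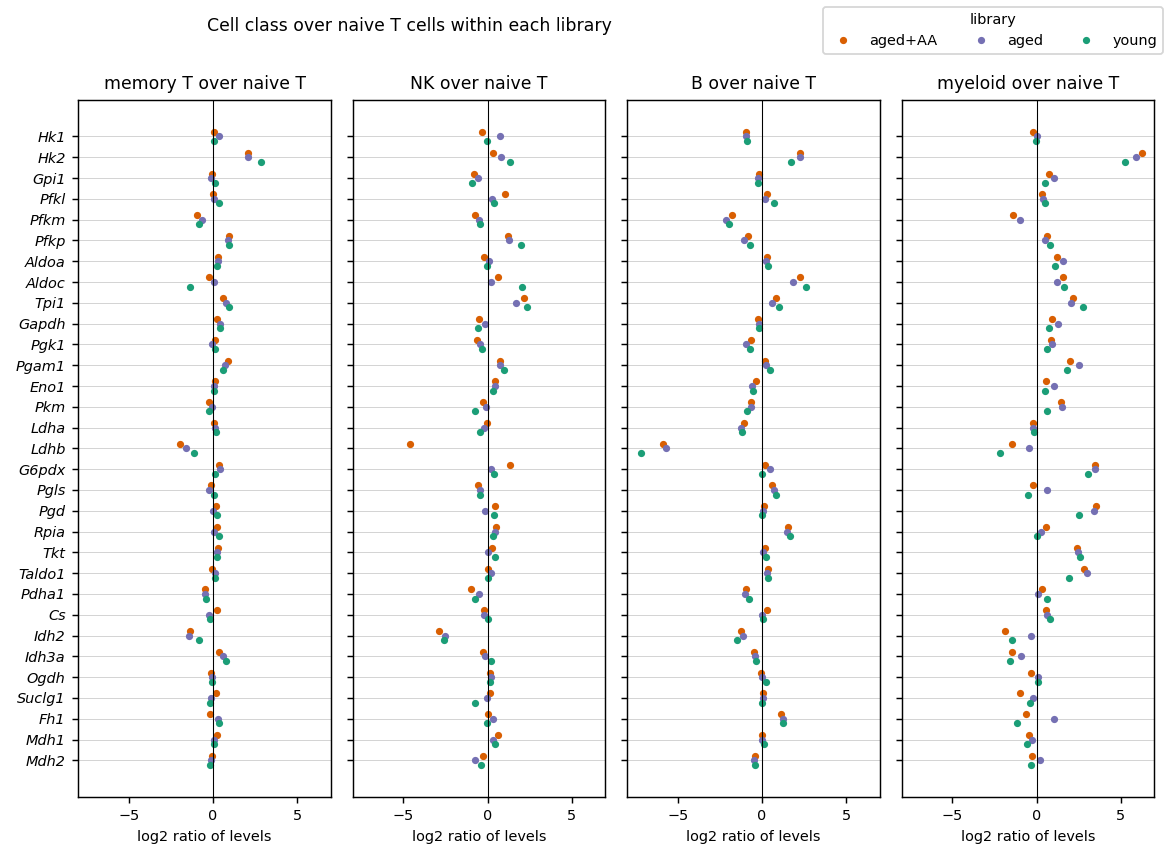
Log2 ratio of each member's level in memory T, NK, B and myeloid cells over naive T cells of the same library, 1 point each for aged+AA, aged and young; a sum with 0 UMIs has no point. Hk2, G6pdx, Pgd, Taldo1 and Tkt lie far to the right in myeloid cells, and Ldhb lies far to the left in B cells.

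Monocyte-gated and neutrophil-gated cells are both in the myeloid class, and their mixture differed between libraries: 41.6% of aged+AA, 57.2% of aged and 73.1% of young myeloid cells were monocyte-gated, and 57.8%, 40.3% and 24.4% were neutrophil-gated. The young library had 19 neutrophil-gated cells, so the split, chosen after seeing the data, is described for the aged+AA library (185 neutrophil-gated and 133 monocyte-gated cells) and the aged library (842 and 1193 cells). Taldo1 had 2152 and 2130.2 CPM in aged+AA and aged neutrophil-gated cells, against 771 and 932 CPM in monocyte-gated cells, which is 2.79-fold (2.52 to 3.10) and 2.29-fold (2.21 to 2.37) higher. All intervals of this kind are exact 95% intervals for counting error only. Pgd was 2.85-fold (2.25 to 3.62) higher in aged+AA and 2.34-fold (2.18 to 2.51) higher in aged neutrophil-gated cells. Gpi1 was 2.26-fold and 2.14-fold, Pkm 2.80-fold and 1.87-fold, Aldoa 2.22-fold and 1.61-fold, and Gapdh 1.80-fold and 1.40-fold higher in the same order. Over the arms, 5 of 11 glycolysis genes with at least 50 UMIs in the higher gate lay above 1.5-fold and 1 below its inverse in aged+AA, and 3 and 1 of 14 in aged. Of the pentose phosphate genes 3 lay above and 1 below, of 5 in aged+AA and of 6 in aged. Over all genes 31.9% lay above and 31.7% below in aged+AA, and 23.2% above and 34.8% below in aged.

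Of the citrate cycle genes 0 lay above 1.5-fold and 4 of 6 lay below its inverse in aged+AA neutrophil-gated cells, and 0 and 5 of 9 in aged. Idh2 had 0 UMIs in aged+AA and 10 in aged neutrophil-gated cells, against 13 and 282 UMIs in monocyte-gated cells, and its level in the aged library was 0.164 (0.0778 to 0.306) of the monocyte level. Mdh1 was at 0.429 (0.243 to 0.720) and 0.510 (0.414 to 0.622) of the monocyte level in aged+AA and aged, and Suclg1 at 0.308 (0.126 to 0.653) and 0.560 (0.447 to 0.695). Fh1, fumarase, was at 0.287 (0.177 to 0.441) in aged, while its aged+AA interval included 1. Pgls was also lower, at 0.598 (0.409 to 0.856) in aged+AA and 0.458 (0.402 to 0.519) in aged. Hk2 had 45.4 and 61.3 CPM in aged+AA and aged neutrophil-gated cells, against 92.0 and 69.3 CPM in monocyte-gated cells, so both kinds of cell stood above the naive T cell level.

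**Figure D3:**
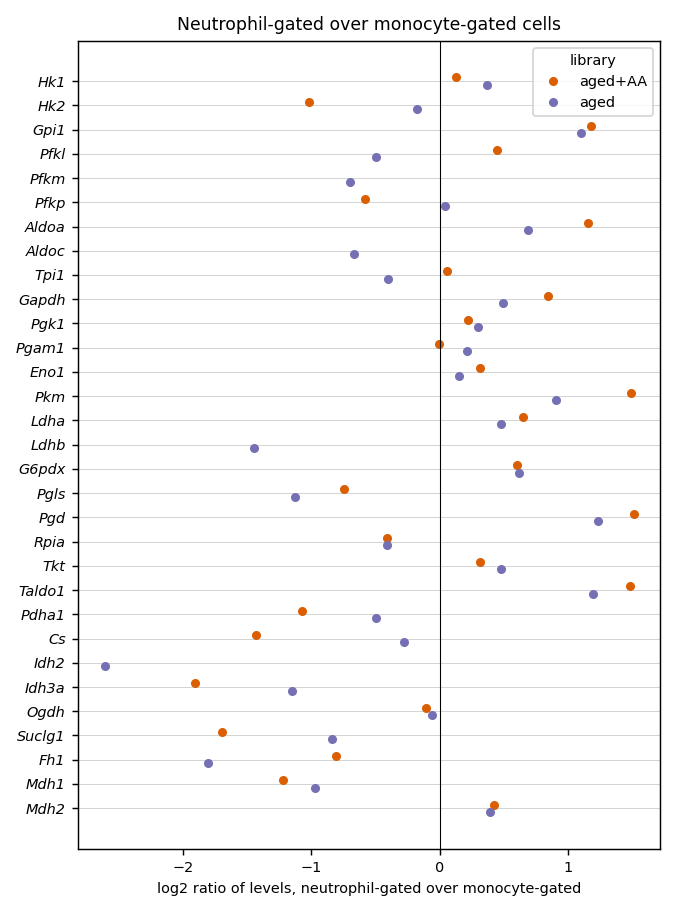
Ratio of the level in neutrophil-gated over monocyte-gated cells for the members (log2 axis), 1 point each for the aged+AA and the aged library; a gate with 0 UMIs has no point. Taldo1, Pgd, Gpi1 and Pkm lie to the right of equal levels in both libraries, and Mdh1, Suclg1, Idh3a and Pgls lie to the left.

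Memory T cells were close to naive T cells in most members. Of the 31, 5 rose and 3 fell by edgeR's quasi-likelihood test (Benjamini-Hochberg adjusted p below 0.05), where 11.2% of all genes tested were higher and 7.64% lower, and the members' median log2 fold change was 0.10, against -0.03 over all genes. Of the pentose phosphate genes 0 passed edgeR's test, 1 had an unadjusted p below 0.05, and 1 (Tkt) was higher with DESeq2. Hk2 had 4.30, 4.80 and 15.5 CPM in aged+AA, aged and young memory T cells, against 1.01, 1.14 and 2.19 CPM in naive T cells (log2 fold change 2.27 ± 0.32). Its naive T levels rest on 10, 4 and 39 UMIs, and it passed the count filter only through classes where it is higher. No p is therefore given for Hk2, though its call is counted above. Pfkp, the platelet-type phosphofructokinase, had 88.1, 108 and 62.7 CPM in memory T cells of the same libraries, against 45.3, 57.7 and 32.4 CPM in naive T cells (log2 fold change 0.95 ± 0.14, edgeR adjusted p = 9.26e-05). Both genes were higher in memory T cells in 3 of 3 libraries. Tpi1 had 34.1, 36.5 and 42.3 CPM in aged+AA, aged and young memory T cells, against 22.2, 21.1 and 21.7 CPM in naive T cells, and rose by 0.80 ± 0.14 on the log2 scale. Pgam1 rose by 0.73 ± 0.15 and Idh3a by 0.57 ± 0.12.

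The lower members of memory T cells were Ldhb and 2 mitochondrial enzymes. Ldhb had 7.67, 7.83 and 14.9 CPM in aged+AA, aged and young memory T cells, against 30.3, 23.4 and 33.0 CPM in naive T cells, and fell by 1.63 ± 0.22 on the log2 scale (edgeR adjusted p = 5.18e-05). Idh2 had 14.8, 11.0 and 19.2 CPM in memory T cells, against 37.5, 29.1 and 33.5 CPM in naive T cells, and fell by 1.21 ± 0.20 (edgeR adjusted p = 0.000369). Neither gene's groups overlapped. Pdha1, the regulated subunit of pyruvate dehydrogenase, had 45.3, 46.8 and 54.2 CPM in memory T cells, against 63.9, 64.8 and 72.1 CPM in naive T cells, and fell by 0.46 ± 0.12. The call of Idh3a was lost without the young library (log2 fold change 0.48), and those of Pgam1 and Pdha1 without the aged+AA library (0.66 and -0.44). CD8-gated cells made up 62.5% of aged+AA, 46.3% of aged and 49.5% of young memory T cells, and 46.2%, 37.6% and 35.3% of naive T cells.

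B cells differed from naive T cells at most members, in both directions. Of the 31, 7 rose and 12 fell by edgeR's quasi-likelihood test (Benjamini-Hochberg adjusted p below 0.05), where 22.9% of all genes tested were higher and 21.4% lower, with a members' median log2 fold change of 0.04, against 0.03 over all genes. Glycolysis held 4 that rose and 8 that fell, the pentose phosphate pathway 2 that rose (Rpia and Pgls) and 0 that fell, also at an unadjusted p below 0.05 and with DESeq2, and the citrate cycle 1 that rose (Fh1) and 4 that fell. Ldhb had 0.517, 0.450 and 0.223 CPM in aged+AA, aged and young B cells, against 30.3, 23.4 and 33.0 CPM in naive T cells, a fall by 5.98 ± 0.31 on the log2 scale. Those B cell levels rest on 11, 7 and 2 UMIs, and with the expected free RNA subtracted none were left in young. The log2 fold change was then -7.38, so its size is uncertain. Ldhb passed the count filter only through classes where it is higher, so no p is given, though its call is counted above. Ldha fell too, with 131, 100.3 and 135 CPM in B cells of the same libraries, against 280.0, 241 and 305 CPM in naive T cells (log2 fold change -1.18 ± 0.12, edgeR adjusted p = 1.62e-07).

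The other lower glycolysis members in B cells were Pfkm, Hk1, Pfkp, Pgk1, Pkm and Eno1, at log2 fold changes of -1.94 (Pfkm) to -0.50 (Eno1). Pfkm stood at 0.612, 0.643 and 0.556 CPM in aged+AA, aged and young B cells, against 2.11, 2.85 and 2.13 CPM in naive T cells. Idh2 fell by 1.31 ± 0.19, with 15.5, 13.1 and 12.0 CPM in aged+AA, aged and young B cells, against 37.5, 29.1 and 33.5 CPM in naive T cells. Pdha1 (-0.92), Mdh2 (-0.45) and Idh3a (-0.42) also fell. Of those that rose, Rpia, which makes ribose 5-phosphate for nucleotides, had 68.9, 51.4 and 75.9 CPM in aged+AA, aged and young B cells, against 23.7, 18.3 and 23.6 CPM in naive T cells (log2 fold change 1.58 ± 0.11, edgeR adjusted p = 2.15e-09). Aldoc rose by 2.30 ± 0.32 to 3.81, 3.09 and 4.79 CPM, against 0.804, 0.856 and 0.786 CPM in naive T cells, which is a large fold on a low level. Hk2 rose by 2.01 ± 0.30 on the log2 scale, to 4.70, 5.47 and 7.23 CPM in aged+AA, aged and young B cells. The naive T levels rest on 8, 3 and 14 UMIs for Aldoc and on 10, 4 and 39 for Hk2. Both genes passed the count filter only through sums where they are higher, so their calls were favoured by the filter. Fh1 rose by 1.18 ± 0.20, with 48.5, 35.1 and 52.6 CPM in B cells, against 22.0, 14.6 and 21.9 CPM in naive T cells (edgeR adjusted p = 0.000113). Tpi1, Pgls and Pfkl had log2 fold changes of 0.84, 0.71 and 0.38 and passed the test. The Pfkl call was lost with DESeq2 (0.37), with no library block (0.36) and without the aged+AA (0.45) or the young library (0.23). Calls were also lost for Eno1 without the young library (-0.45), for Mdh2 without the aged+AA (-0.47) or the young library (-0.44), and for Idh3a without the aged+AA library (-0.38).

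NK cells, cytotoxic innate lymphocytes, numbered 200 in aged+AA, 229 in aged and 337 in young. By edgeR's quasi-likelihood test (Benjamini-Hochberg adjusted p below 0.05) 6 members rose and 7 fell, where 17.0% of all genes tested were higher and 18.1% lower, and the medians were 0.03 over the members and -0.06 over all genes on the log2 scale. Of the pentose phosphate genes 0 passed edgeR's test, 3 had an unadjusted p below 0.05 (2 higher, 1 lower), and 2 (Rpia and Tkt) were higher with DESeq2. Tpi1 had 98.1, 68.0 and 112 CPM in aged+AA, aged and young NK cells, against 22.2, 21.1 and 21.7 CPM in naive T cells (log2 fold change 2.09 ± 0.16, edgeR adjusted p = 1.29e-08). Pfkp had 103, 138 and 131 CPM in NK cells of the same libraries, against 45.3, 57.7 and 32.4 CPM in naive T cells (log2 fold change 1.51 ± 0.15, edgeR adjusted p = 4.91e-07). Both stood higher in NK cells in 3 of 3 libraries without overlap. So did Pgam1, with 102, 80.0 and 119 CPM in NK cells, against 60.3, 47.4 and 60.0 CPM in naive T cells (log2 fold change 0.83 ± 0.17).

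Among the lower members of NK cells, Idh2 had 5.03, 5.00 and 5.59 CPM in aged+AA, aged and young, against 37.5, 29.1 and 33.5 CPM in naive T cells, a fall by 2.69 ± 0.37 on the log2 scale (edgeR adjusted p = 1.98e-05). Those NK levels rest on only 4, 5 and 7 UMIs. Gpi1 had 136, 117 and 116 CPM in aged+AA, aged and young NK cells, against 241, 175 and 223 CPM in naive T cells, and fell by 0.80 ± 0.14. Pdha1 fell by 0.75 ± 0.15. Ldhb had 1, 0 and 0 UMIs in aged+AA, aged and young NK cells, so no fold is given, and it is one of the 7. Without the aged+AA library 3 members rose and 4 fell, without the aged library 6 and 9, and without the young library 3 and 5. The calls that were lost without the aged+AA or the young library were Eno1, Pfkl and Mdh1 among the higher members and Mdh2, Gapdh and Pgk1 among the lower.

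The same 4 contrasts share the naive T cells, so their counts are not set against each other. Side by side, the log2 fold change of Hk2 was 2.27 in memory T, 2.01 in B and 5.79 in myeloid cells over naive T cells. That of Tpi1 was 0.80 in memory T, 2.09 in NK, 0.84 in B and 2.27 in myeloid cells. That of Idh2 was -1.21, -2.69, -1.31 and -0.77 in the same order.

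Isoenzyme shares compare the UMIs of 1 gene with those of its family within a sum and are free of the scaling between sums. They are shares of UMIs, not of protein, and no test was made between libraries. Ldhb, which encodes the subunit that favours lactate oxidation, held 9.76% (8.73 to 10.9), 8.84% (7.09 to 10.8) and 9.76% (9.02 to 10.5) of lactate dehydrogenase A and B UMIs in aged+AA, aged and young naive T cells (exact 95% binomial intervals, counting error only). The 3 intervals overlapped. In memory T cells the share was 2.55% (2.06 to 3.12), 2.90% (2.12 to 3.88) and 4.15% (3.08 to 5.44) in the same order, below naive T cells in every library. In B cells it was 0.394% (11 of 2794 UMIs), 0.447% (7 of 1567) and 0.164% (2 of 1216). In NK cells it was 1 of 221, 0 of 212 and 0 of 282 UMIs, and 0 allows a share of up to 1.42% in aged and 1.06% in young. Myeloid cells lay between, at 4.44% (2.45 to 7.34), 7.60% (6.66 to 8.64) and 2.56% (0.532 to 7.31). The lower share of memory T cells was also seen within CD8-gated cells, at 1.48%, 1.62% and 1.43% in aged+AA, aged and young memory cells, against 7.48%, 4.75% and 5.99% in naive cells. Within CD4-gated cells it was 3.50%, 4.27% and 6.10% in memory cells, against 9.67%, 10.0% and 12.9% in naive cells.

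Hk2 held 74.0% (65.7 to 81.3), 65.1% (62.4 to 67.7) and 76.1% (61.2 to 87.4) of hexokinase 1 and 2 UMIs in aged+AA, aged and young myeloid cells. Myeloid cells were thus the class in which Hk2 UMIs outnumbered those of Hk1. The share was 22.8%, 22.5% and 33.0% in B cells, 4.76%, 3.17% and 17.1% in NK cells, and 3.12%, 3.08% and 7.41% in naive T cells. The NK shares rest on 1 of 21, 2 of 63 and 7 of 41 UMIs. Their intervals of 0.120 to 23.8, 0.387 to 11.0 and 7.15 to 32.1 overlapped. The aged naive T share rests on 4 of 130 UMIs. In memory T cells it was 11.8% (8.92 to 15.2) in aged+AA, 9.31% (6.23 to 13.3) in aged and 35.7% (27.8 to 44.1) in young, and the young interval did not overlap those of the other libraries. The young value rests on 51 Hk2 UMIs in 32 of 550 cells, with at most 4 in 1 cell.

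Pfkp held 76.3% (74.0 to 78.6), 83.5% (80.6 to 86.1) and 69.4% (63.8 to 74.6) of phosphofructokinase UMIs in aged+AA, aged and young memory T cells. In naive T cells the shares were 61.3% (57.7 to 64.8), 72.4% (66.8 to 77.6) and 59.0% (55.8 to 62.1), and in B cells 43.4% (40.6 to 46.3), 55.7% (52.1 to 59.3) and 37.7% (33.4 to 42.2). In naive T, memory T and B cells alike the aged library had the highest share, with intervals clear of the other libraries. In NK cells the shares were 65.1% (56.1 to 73.4), 84.7% (78.2 to 89.8) and 82.0% (76.0 to 87.1), where aged and young overlapped. The liver form Pfkl held most of the rest, from 14.1% (aged NK cells) to 61.2% (young B cells), and Pfkm at most 3.89%. The aged library also had the highest haemoglobin share in each class (0.485% to 0.755% of class UMIs, against 0.189% to 0.304% in aged+AA and 0.0886% to 0.130% in young). Platelet markers were also highest there, at 7.58, 6.58 and 4.23 CPM in aged naive T, memory T and B cells, against 0.966, 0.810 and 1.08 CPM in aged+AA and 0.666, 0 and 0.301 CPM in young, as were the myeloid gate genes. The part of these cells in the Pfkp share was not tested. Aldoc held 1.56%, 1.68% and 1.96% of aldolase A and C UMIs in aged+AA, aged and young B cells, and at most 1.73% in any sum of the other classes.

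**Figure D4:**
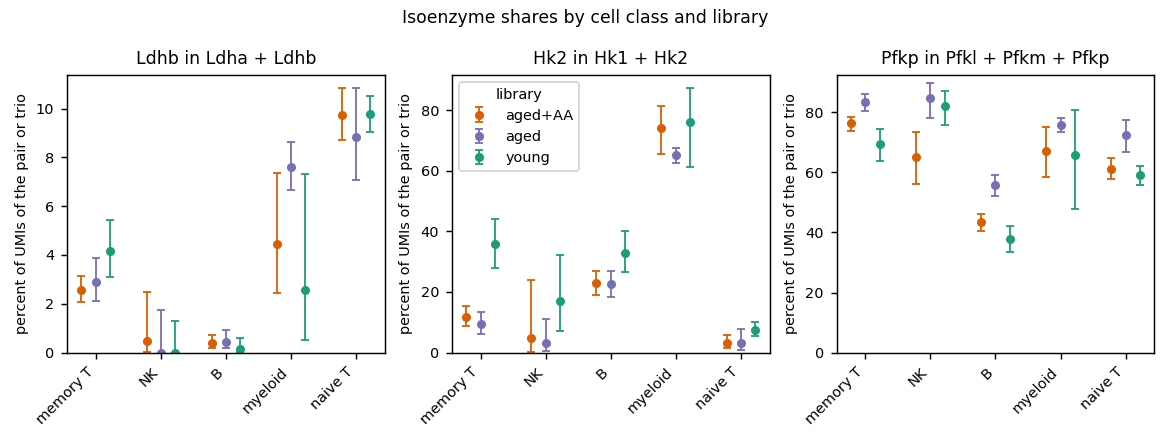
Share of family UMIs (percent, with exact 95% binomial intervals for counting error) of Ldhb in Ldha and Ldhb, Hk2 in Hk1 and Hk2, and Pfkp in the 3 phosphofructokinase genes, by class, for the aged+AA, aged and young libraries. Ldhb is highest in naive T cells, Hk2 in myeloid cells, and Pfkp is higher in the aged library than in the other 2 in naive T, memory T and B cells.

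As shares of all UMIs of a class, glycolysis genes took 0.371%, 0.349% and 0.339% in aged+AA, aged and young myeloid cells, against 0.179%, 0.160% and 0.160% in naive T cells, a geometric mean ratio of 2.13. Pentose phosphate genes took 0.206%, 0.199% and 0.158% in myeloid cells of the same libraries, against 0.0409%, 0.0400% and 0.0372% in naive T cells, a geometric mean ratio of 4.74. Citrate cycle genes took 0.0512%, 0.0614% and 0.0660% in myeloid cells, against 0.0599%, 0.0608% and 0.0570% in naive T cells. Ribosomal protein genes held 13.4% to 16.8% of myeloid UMIs and 39.4% to 41.8% of naive T cell UMIs. Without ribosomal, mitochondrial, haemoglobin and receptor genes, an alternative chosen after seeing the data, the geometric mean ratios were 1.42 for glycolysis, 3.17 for the pentose phosphate pathway and 0.667 for the citrate cycle.

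The other genes of these pathways were a list of 43, of which 37 were tested. In myeloid over naive T cells 15 of them rose and 6 fell by edgeR's quasi-likelihood test (Benjamini-Hochberg adjusted p below 0.05). Over all genes tested, 31.1% were higher and 32.3% lower. Hk3, a hexokinase of myeloid cells, had 70.7, 64.9 and 33.9 CPM in aged+AA, aged and young myeloid cells, against 0.302, 0 and 0.112 CPM in naive T cells. The naive T values rest on 3, 0 and 2 UMIs, so no fold is given. Slc16a3, the lactate exporter MCT4, had 242, 153 and 213 CPM in myeloid cells of the same libraries, against 0.603, 0.856 and 1.07 CPM in naive T cells. Those naive T levels are low and the gene passed the count filter through other classes, so no fold or p is given. The cytosolic Idh1 rose by 4.72 ± 0.27 on the log2 scale. Those that fell most were Slc16a1, the transporter MCT1 (-3.63 ± 0.25), Pdk1, a kinase that inhibits pyruvate dehydrogenase (-2.94 ± 0.20), and Myc (-2.94 ± 0.34). Neutrophil-gated cells had 169.8 and 201 CPM of Hk3 in aged+AA and aged, against 20.3 and 35.6 CPM in monocyte-gated cells, and 328 and 361 CPM of the glucose transporter Slc2a3, against 5.97 and 4.75 CPM.

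In the lymphocyte classes the transporter and kinase genes were among those called. Over all genes tested, 11.2% were higher and 7.64% lower in memory T cells, 22.9% and 21.4% in B cells, and 17.0% and 18.1% in NK cells. The counts of the list did not exceed these shares in either direction. In memory over naive T cells 3 of 37 rose (Slc2a3, Slc2a1 and Me2, at log2 fold changes of 0.92, 0.70 and 0.53) and 2 fell (Pdk1 and Hif1a, by 1.34 ± 0.14 and 0.38 ± 0.13). In B cells 5 rose, with Pfkfb4 (1.17), Slc2a1 (1.05) and Pfkfb3 (0.80) the largest, and 5 fell, with Slc16a1 (-2.20), Pdk1 (-1.54) and Hif1a (-1.16) the largest. In NK cells 5 rose, with Slc2a3 (1.97), H6pd (1.09) and Me2 (0.81) the largest, and 4 fell, namely Pdk1, Slc16a1, Hif1a and Myc. Pdk1 had 7.55, 6.00 and 4.79 CPM in aged+AA, aged and young NK cells, against 81.6, 95.1 and 91.3 CPM in naive T cells (log2 fold change -3.93 ± 0.26, edgeR adjusted p = 3.16e-09). Pdk1 stood at 35.2, 29.9 and 41.4 CPM in memory T cells, 27.1, 34.5 and 30.0 CPM in B cells and 15.3, 10.1 and 19.4 CPM in myeloid cells, so naive T cells had its highest level in every library.

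The treatment comparison set the aged+AA library against the aged library, class by class, for genes with at least 50 UMIs in the higher library. Most members differed by less than 1.5-fold. In naive T cells 1 of 28 members lay above 1.5-fold and none below its inverse, where 6.09% of all genes were above and 4.13% below. That member was Fh1, at 22.0 CPM in aged+AA and 14.6 CPM in aged, a ratio of 1.51 (1.11 to 2.09) from 219 and 51 UMIs. The member farthest the other way was Pgd, at 20.3 and 26.5 CPM, a ratio of 0.765 (0.596 to 0.989). In memory T cells 0 of 29 members passed in either direction (6.99% of all genes above, 4.76% below). The farthest were Suclg1, at 107 and 72.6 CPM in aged+AA and aged (ratio 1.48, 1.32 to 1.66), Rpia (ratio 1.48, 1.19 to 1.86), and on the lower side Hk1, at 32.1 and 46.8 CPM (ratio 0.687, 0.585 to 0.806). In B cells 1 of 29 lay above and none below (4.08% and 4.02% of all genes). It was Pfkl, at 32.0 CPM in aged+AA and 21.2 CPM in aged (ratio 1.51, 1.32 to 1.72), and the farthest lower member was Pgd (ratio 0.779, 0.682 to 0.889). Under plain CPM 0 members passed in naive T and B cells, and 1, Hk1, lay below in memory T cells. With that scaling 3.01% of all genes lay above and 10.7% below in naive T, 2.31% and 8.56% in B, and 3.00% and 12.8% in memory T cells.

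In NK cells 2 of 18 members with enough UMIs lay above 1.5-fold and 1 below (4.29% and 6.32% of all genes). Mdh2, the mitochondrial malate dehydrogenase, had 153 CPM in aged+AA and 98.0 CPM in aged NK cells (ratio 1.57, 1.19 to 2.07), and Tkt had 94.4 and 61.0 CPM (ratio 1.55, 1.09 to 2.21). Hk1 had 25.2 CPM in aged+AA and 61.0 CPM in aged NK cells, on 20 and 61 UMIs (ratio 0.413, 0.236 to 0.693). In myeloid cells 1 of 29 lay above and 4 below (11.2% and 17.2% of all genes). Rpia had 35.3 CPM in aged+AA and 22.2 CPM in aged myeloid cells (ratio 1.59, 1.13 to 2.19). The lower 4 were Idh2 (10.4 and 23.3 CPM, ratio 0.449, 0.236 to 0.780), Fh1 (14.5 and 30.1 CPM, ratio 0.480, 0.282 to 0.770), Pgls (139.8 and 239.8 CPM, ratio 0.583, 0.497 to 0.679) and Ldhb (11.2 and 17.3 CPM, ratio 0.650, 0.349 to 1.11). Idh2 and Pgls are among the genes that stood lower in neutrophil-gated than in monocyte-gated cells, and neutrophil-gated cells were 57.8% of aged+AA and 40.3% of aged myeloid cells, so the comparison was repeated in monocyte-gated cells alone. There the ratios were 0.553 for Idh2, 0.473 for Fh1, 0.589 for Pgls and 0.831 for Ldhb.

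The age comparison set the aged library against the young library. In naive T cells 1 of 28 members lay above 1.5-fold and 2 below its inverse, where 8.27% of all genes were above and 11.0% below. Pfkp had 57.7 CPM in aged and 32.4 CPM in young naive T cells, on 202 and 577 UMIs (ratio 1.78, 1.51 to 2.09). Suclg1 had 79.1 and 123 CPM (ratio 0.645, 0.567 to 0.731), and Fh1 14.6 and 21.9 CPM (ratio 0.665, 0.486 to 0.892). In memory T cells 2 of 28 lay above and 6 below, where 11.7% of all genes were above and 7.41% below. The higher were Pfkp, at 108 CPM in aged and 62.7 CPM in young (ratio 1.72, 1.47 to 2.03), and Hk1, at 46.8 and 28.0 CPM (ratio 1.67, 1.31 to 2.14). The lowest was Hk2, at 4.80 CPM in aged and 15.5 CPM in young memory T cells, on 27 and 51 UMIs (ratio 0.309, 0.186 to 0.502). Idh2 (0.575, 0.398 to 0.830), Fh1 (0.622, 0.464 to 0.834), Rpia (0.644, 0.485 to 0.855), Suclg1 (0.657, 0.569 to 0.758) and Gpi1 (0.664, 0.604 to 0.731) were the other members below, each given as its ratio of aged over young. Under plain CPM 2 members lay above and 1 below in memory T cells and 2 and 0 in naive T cells, so the number of lower members changed with the scaling. The shares over all genes moved too, to 28.0% above and 2.33% below in memory T cells and 23.2% and 4.70% in naive T cells.

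In B cells none of 28 members lay above and 1 below (9.94% and 7.80% of all genes), namely Pfkl, at 21.2 CPM in aged and 32.7 CPM in young (ratio 0.649, 0.552 to 0.762). The plasma cell list (Jchain, Xbp1 and Mzb1) summed to 1492 CPM in aged and 383 CPM in young B cells and the myeloid gate genes to 339 and 8.23 CPM, and their part in the B cell ratios was not tested. Under plain CPM the ratio of Pfkl was 0.788, and 2 members lay above and 0 below, where 24.1% of all genes lay above and 2.94% below. The farthest higher member was Pfkp (ratio 1.37, 1.15 to 1.63). In NK cells 1 of 21 lay above and 2 below (6.39% and 9.84% of all genes). Hk1 had 61.0 CPM in aged and 27.1 CPM in young NK cells, on 61 and 34 UMIs (ratio 2.25, 1.45 to 3.53), Tkt had 61.0 and 106 CPM (ratio 0.575, 0.417 to 0.784) and Tpi1 68.0 and 112 CPM (ratio 0.609, 0.449 to 0.819). In myeloid cells 6 of 29 lay above and 2 below (32.5% and 11.6% of all genes), where the young library had 78 cells. Pgls had 239.8 CPM in aged and 107 CPM in young myeloid cells (ratio 2.25, 1.67 to 3.10), Pgd 277 and 138 CPM (ratio 2.01, 1.55 to 2.66), and Taldo1 1129 and 708 CPM (ratio 1.60, 1.42 to 1.80). Fh1 (3.11, 1.20 to 11.5), Ldhb (2.38, 0.804 to 11.6) and Idh2 (1.92, 0.814 to 5.96) rest on 4, 3 and 5 UMIs in young. The lower members were Tpi1 (0.597, 0.460 to 0.788) and Pdha1 (0.623, 0.463 to 0.857). In monocyte-gated cells alone the ratios were 2.58 for Pgls, 1.96 for Pgd, 1.67 for Taldo1 and 0.571 for Tpi1.

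Hk1 and Pfkp are given side by side for both comparisons, which share the aged library. The ratio of Hk1 was 1.31, 1.67, 1.28, 2.25 and 1.36 for aged over young in naive T, memory T, B, NK and myeloid cells, and 0.870, 0.687, 0.844, 0.413 and 0.753 for aged+AA over aged. That of Pfkp was 1.78, 1.72, 1.37, 1.05 and 1.47 for aged over young, and 0.785, 0.815, 0.909, 0.748 and 0.860 for aged+AA over aged. They were picked after their values were seen, and other members lay the other way: the ratio of Tkt was 0.782, 0.799, 0.719, 0.575 and 0.725 for aged over young, and 1.27, 1.28, 1.37, 1.55 and 1.21 for aged+AA over aged. The aged level is the numerator of one ratio and the denominator of the other. Erythroid and platelet markers were highest in the aged library in all 5 classes and myeloid gate genes in the 4 lymphocyte classes, and their part in these ratios was not tested.

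**Figure D5:**
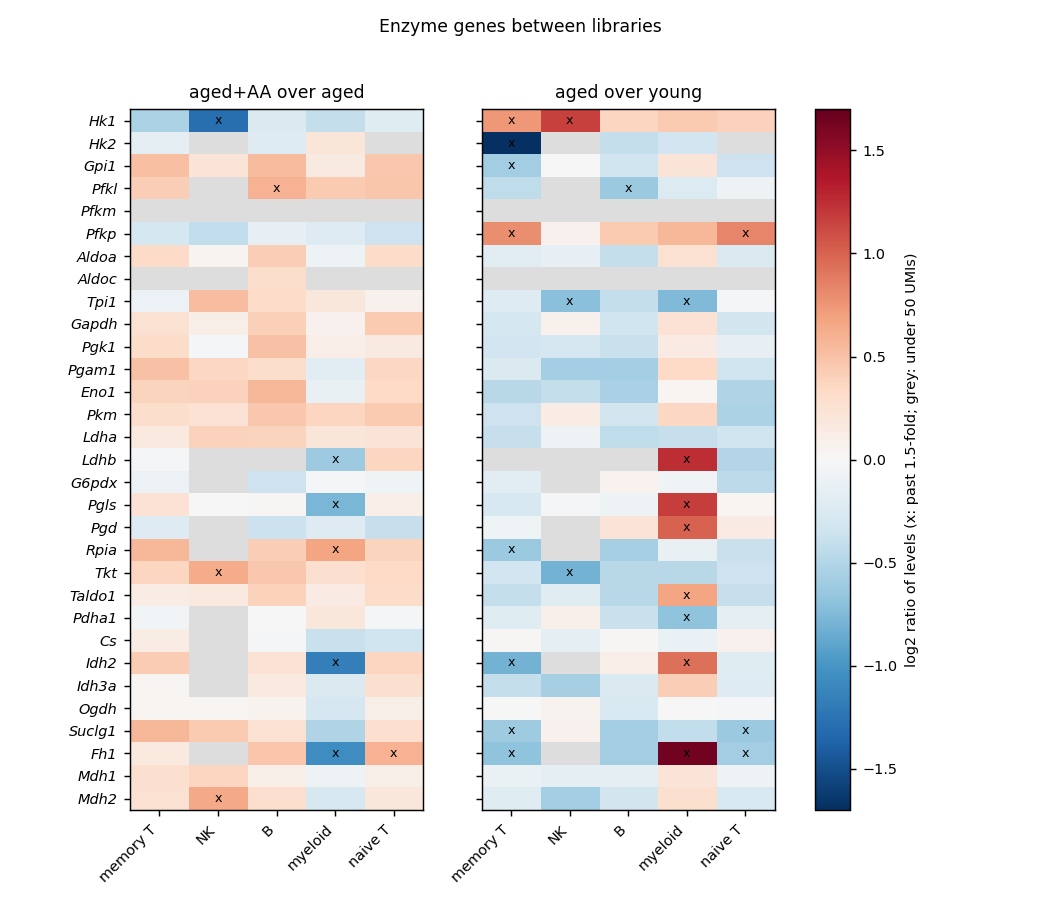
Heat maps of the log2 ratio of each member's level (rows) in aged+AA over aged (left) and in aged over young (right), by cell class (columns); red is above and blue below equal levels, crosses mark ratios past 1.5-fold, and grey marks members under 50 UMIs in the higher library. Hk1 and Pfkp are blue for aged+AA over aged and red for aged over young.

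The median over the members depended on the scaling. The median log2 ratio of aged+AA over aged was 0.28 in naive T, 0.24 in memory T and 0.30 in B cells under TMM, against 0.04, 0.03 and 0.01 over all genes with enough UMIs. Under plain CPM the members' medians were 0.11, 0.02 and 0.16, against -0.13, -0.19 and -0.13 over all genes. For aged over young the members' medians in naive T, memory T and B cells were -0.25, -0.31 and -0.36 under TMM and 0.07, -0.00 and -0.08 under plain CPM, a change of sign in naive T cells, where all genes had -0.05, 0.02 and 0.00 under TMM and 0.26, 0.33 and 0.28 under plain CPM. In NK cells the members' medians under TMM were 0.23 for aged+AA over aged and -0.14 for aged over young, and in myeloid cells -0.09 and 0.22. The share of ribosomal protein genes differed between the libraries, at 35.4%, 30.0% and 36.7% of UMIs in aged+AA, aged and young memory T cells, and its part in the medians was not tested.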

How the data were processed

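Peripheral blood mononuclear cells were profiled with 10x Chromium Single Cell 3′ chemistry, per the labels' protocols, in 3 libraries with 64496639 to 94944551 UMIs in all barcodes. The deposited values are raw UMI counts per gene and barcode, and per the file headers Cell Ranger 4 wrote them. Seurat 3.1.0 and the build mm10 are named in the submitters' processing notes. Strand handling and the treatment of reads shared by several genes are not given in the sources used here. Cells were called against free RNA (FDR 0.01, 10000 draws) and kept from 500 UMIs and 250 genes upward if mitochondrial genes held no more than 10% of UMIs. Doublets predicted by Scrublet in scanpy 1.11.5 (4.01% to 4.47% of cells) were removed. Free RNA was estimated at 0.843% to 2.99% of class UMIs.

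A cell entered a lineage with at least 2 marker UMIs and 3 times the sum of each other lineage, and at most 5% haemoglobin UMIs. T cells were Cd3d, Cd3e, Cd3g and Trac, B cells mainly Cd79a, Cd79b and Ms4a1, NK cells Ncr1, Klrb1c, Klre1 and Klra8, and myeloid cells Lyz2, S100a8, S100a9 and Csf1r. Naive T cells were set mainly by Ccr7 and Lef1, memory T cells by Cd44, Il2rb, Ccl5, S100a4 and Itgb1. Some gate genes are not reported here. UMIs were summed by class and library. Class contrasts used edgeR 4.0.16 (R 4.3.3; TMM, quasi-likelihood test, library as a block, Benjamini-Hochberg adjustment over 11565 genes, threshold 0.05). The library is the block because the 5 classes of a library come from the same blood. Genes with low counts and the gate markers were left out, and all 31 members were tested. A gene that passed the count filter only through a class where it is high had to differ. Library comparisons have 1 library per group, so they have no test and no p: genes with at least 50 UMIs in the higher library are given as ratios of TMM-scaled CPM with exact 95% intervals (scipy 1.17.1), and 1.5-fold is the rule of size. Intervals and limits cover counting error only, the limit for 0 UMIs being 3 counts. Both procedures were tested on simulated data. Named in the text are, per class contrast, the 3 called members with the largest fold each way, and per library comparison, the members past 1.5-fold or else the farthest each way, with the 43 other pathway genes by the same rules. Further members are named to account for all 31. The members and lists were chosen with earlier results of these data known. Alternatives covered DESeq2 1.42.0, the scaling, filters, free RNA, gates, cell weights and each library left out.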

Additional observations from a re-analysis of the deposited data

Results flagged for a closer look

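For 2 citrate cycle genes the class ratios between libraries lay past 1.5-fold in opposite directions in T cells and in myeloid cells. The difference between classes was not tested, since each group is 1 library. In aged over young, 32.5% of all genes lay above 1.5-fold in myeloid cells, and 11.0% and 7.41% lay below its inverse in naive and memory T cells. In aged+AA over aged, 17.2% lay below in myeloid cells and 6.09% above in naive T cells. How many of all genes lay on opposite sides was not counted.

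Fh1, fumarase, had an aged over young ratio of 3.11 in myeloid cells (379 and 4 UMIs), against 0.665 in naive T cells (51 and 390 UMIs) and 0.622 in memory T cells (99 and 93 UMIs). Its aged+AA over aged ratio was 0.480 in myeloid cells (18 and 379 UMIs), against 1.51 in naive T cells (219 and 51 UMIs). Idh2, the mitochondrial NADP-dependent isocitrate dehydrogenase, had an aged over young ratio of 1.92 in myeloid cells (293 and 5 UMIs), against 0.575 in memory T cells (62 and 63 UMIs). The interval of that myeloid ratio included equal levels. Both comparisons of Fh1 use the aged library. In monocyte-gated cells alone the aged over young ratio was 3.92 for Fh1 and 1.87 for Idh2, resting on 3 and 5 UMIs in young.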

How the results depend on the processing

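Over the class contrasts, 473 gene values kept direction and call, 61 lost the call and 0 changed sign; over the library comparisons, 303 gene ratios stayed close and 10 moved. Members higher in memory T cells numbered 5, or 8 with DESeq2. Leaving out 1 library gave 3 to 6 higher and 4 to 9 lower members in NK cells and 1 to 5 lower members in myeloid cells, where monocyte-gated cells alone gave 2. With no replicate block the members higher and lower were 5 and 2 in memory T, 4 and 5 in NK, 6 and 12 in B, and 16 and 5 in myeloid cells. No paired analysis was possible because the library comparisons have 1 library per group.

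Members past 1.5-fold in aged over young numbered 3 in naive T cells (5 with CD8-gated cells only) and 8 in memory T cells (3 under plain CPM, 4 without mitochondrial and ribosomal genes, 4 with a minimum of 200 counts, 5 CD8-gated, 4 CD4-gated). They numbered 1 in B cells (2 under plain CPM or with free RNA subtracted, 7 with at most 5% mitochondrial UMIs, 3 with the stricter gate or cells weighted equally) and 3 in NK cells (5 with at most 5% mitochondrial UMIs or cells weighted equally, 0 at 200 counts). In aged+AA over aged they numbered 1 in naive T cells (0 under plain CPM, without mitochondrial and ribosomal genes or with free RNA subtracted, 3 CD8-gated, 3 CD4-gated) and 0 in memory T cells (1 under plain CPM, without mitochondrial and ribosomal genes or with cells weighted equally, 4 with the stricter gate, 2 CD8-gated). They numbered 1 in B cells (0 under plain CPM, without mitochondrial and ribosomal genes or with the stricter gate, 2 with at most 5% mitochondrial UMIs) and 3 in NK cells (1 with no haemoglobin limit, 0 at 200 counts). Under plain CPM the shares over all genes moved as well. The cause of these moves was not tested.

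With free RNA subtracted the Ldhb share in B cells was 0.111% in aged+AA and 0% in young. With the stricter gate the Hk2 share in aged NK cells was 0% and the Pfkp share in aged memory T cells 87.0%. Geometric mean myeloid over naive T ratios of pathway shares, in alternatives chosen after seeing the data, were 1.90 for glycolysis and 4.25 for the pentose phosphate pathway as TMM-scaled CPM, and 1.42, 3.17 and 0.667 for glycolysis, pentose phosphate and citrate cycle without mitochondrial and ribosomal genes. The geometric mean citrate cycle ratio of 1.00 was 0.930 to 1.08 when 1 library was left out, 1.08 being the value without aged+AA.

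Depth limits most the NK sums and the young myeloid sum, where Ldhb, Fh1 and Idh2 rest on 5 UMIs or fewer. The mice behind a library are not known in number, so no statement on age or treatment goes beyond these libraries.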

Other observations

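Among the other genes of these pathways, Myc, a transcription factor that drives glycolytic genes in activated lymphocytes, differed between libraries in B and memory T cells. In aged over young B cells it had 39.3 and 113 CPM, on 611 and 1012 UMIs (ratio 0.349, 0.315 to 0.386). In memory T cells it was at 0.660 (0.522 to 0.836) in aged over young and at 1.92 (1.61 to 2.30) in aged+AA over aged, with 53.2 CPM in aged+AA and 27.8 CPM in aged. In B cells Tigar, a phosphatase that lowers fructose 2,6-bisphosphate, had an aged over young ratio of 2.08 (1.34 to 3.31, 97 and 27 UMIs), and Dld, a subunit shared by the 2-oxoacid dehydrogenases, one of 0.661 (0.576 to 0.760). In aged over young naive T cells Sdhd, a subunit of succinate dehydrogenase, was at 0.659 (0.544 to 0.793) and Pfkfb4, which sets the level of the activator of phosphofructokinase, at 0.440 (0.196 to 0.868, 9 and 104 UMIs). In aged+AA over aged, Eno3, the muscle enolase, was at 1.95 (1.15 to 3.48) in naive T cells and 1.72 (1.14 to 2.67) in memory T cells, and Pdhx, a component of the pyruvate dehydrogenase complex, at 1.92 (1.22 to 3.13) in memory T cells. All intervals cover counting error only. These were the list's genes past 1.5-fold in naive T, memory T and B cells, among those with enough UMIs. For aged over young, 0 of 32, 0 of 24 and 1 of 32 lay above, and 2, 1 and 2 below. Over all genes 8.27%, 11.7% and 9.94% lay above, and 11.0%, 7.41% and 7.80% below. For aged+AA over aged, 1 of 27, 3 of 29 and 0 of 33 lay above, and 0 below in each class. Over all genes 6.09%, 6.99% and 4.08% lay above, and 4.13%, 4.76% and 4.02% below.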
